A study of Mus musculus with 186 samples.

Results

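In all, 10 keratin genes were examined: the type II keratins Krt5, Krt6a, Krt7 and Krt8 and the type I keratins Krt14, Krt15, Krt17, Krt18, Krt19 and Krt23. They were chosen by name as keratins of basal or luminal epithelium and are 10 of the 27179 gene identifiers counted in each cell. The RNA came from single mammary epithelial cells of adult female FVB/NJ mice, 96 sorted as basal (Lin-CD29hiCD24+) and 90 sorted as luminal (Lin-CD29loCD24+). No transgene, drug or other treatment was used, and each cell was captured on a Fluidigm C1 chip built for cells of 10-15 μm, so cells outside that size range were less likely to be sampled. The labels place the basal cells on PCR plates A and B and the luminal ones on B and C, and only plate B held both populations. The cells came from 8 mice, but the labels tie no cell to a mouse, so each population counts as 1 sample. There is thus no replicate check on any difference below, and intervals are 95% intervals that cover counting error only.

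Keratins form the intermediate filaments of epithelial cells. A filament is built from heterodimers of a type I and a type II keratin, so a cell needs at least one of each, and a keratin without a partner is degraded. In stratified epithelia and in the basal, myoepithelial layer of the mammary duct the classical pair is Krt5 with Krt14, joined by Krt15 and Krt17. Simple epithelia such as the luminal layer use Krt8 with Krt18 and Krt19, and Krt7 is a further type II keratin of ducts. Krt6a and Krt17 are known from hair follicles and wounded skin.

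In the genome (GRCm38.p6) the type I members lie on chromosome 11 and the type II members on chromosome 15, except Krt18, a type I gene next to the type II cluster at chr15:102028216-102032026. It starts 23.9 kb beyond its partner Krt8 (chr15:101996711-102004342), with 2 genes and no keratin between them. Krt5 lies at chr15:101707069-101712905 and has Krt6a (chr15:101689928-101694305) as its neighbour at 12.8 kb. Krt15 (chr11:100131759-100135949) and Krt19 (chr11:100140810-100145926) are 4.86 kb apart with no gene between them. Krt14 (chr11:100203162-100207510) and Krt17 (chr11:100256215-100261029) follow on the same chromosome, Krt23 is at chr11:99477973-99493120 and Krt7 at chr15:101412403-101427806. The promoters of Krt8 and Krt18, the pair detected together in nearly all luminal cells, and of Krt5, the type II keratin of the basal pair, are shown from 250 bases before to 50 bases after the RefSeq start of each gene. Capitals mark motif matches.
Krt8 (chr15:102004293-102004592, minus strand): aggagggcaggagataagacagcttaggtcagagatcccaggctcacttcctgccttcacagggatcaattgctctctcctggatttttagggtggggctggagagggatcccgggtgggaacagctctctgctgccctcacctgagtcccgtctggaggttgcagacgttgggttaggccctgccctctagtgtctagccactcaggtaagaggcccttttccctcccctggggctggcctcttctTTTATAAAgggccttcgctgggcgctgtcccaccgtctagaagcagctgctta
Krt18 (chr15:102027966-102028265, plus strand): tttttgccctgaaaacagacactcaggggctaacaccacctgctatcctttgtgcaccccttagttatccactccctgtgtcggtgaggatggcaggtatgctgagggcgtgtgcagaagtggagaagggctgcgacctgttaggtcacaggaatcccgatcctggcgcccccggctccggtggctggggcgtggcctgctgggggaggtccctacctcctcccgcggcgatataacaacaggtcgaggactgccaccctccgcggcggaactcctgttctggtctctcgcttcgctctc
Krt5 (chr15:101712856-101713155, minus strand): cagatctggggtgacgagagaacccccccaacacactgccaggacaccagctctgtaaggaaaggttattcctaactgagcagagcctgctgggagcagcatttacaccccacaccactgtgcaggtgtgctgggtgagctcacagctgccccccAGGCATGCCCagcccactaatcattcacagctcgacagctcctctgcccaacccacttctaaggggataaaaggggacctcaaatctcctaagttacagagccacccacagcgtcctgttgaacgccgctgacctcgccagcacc
The search covered 4 motifs on both strands: the TATA box TATAAA, the GC box GGGCGG, the AP-1 site TGANTCA and the p63 half-site. The Krt8 window held 2 TATA box matches, 1 on each strand and overlapping, a motif found in 13.6% of 32851 promoters of that length. The Krt5 window held 1 match to the p63 half-site (8.36% of promoters). The Krt18 window held no match to the 4 motifs. The Krt7 window, not printed, held 4 GC box matches (35.7% of promoters), and the Krt23 window held none of the 4. No match to the AP-1 site (7.81% of promoters) was found in these 5 windows. These matches describe the letters of the windows and say nothing about binding.

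After the thresholds on reads and genes, 72 basal cells (50 on plate A, 22 on plate B) and 76 luminal cells (24 on plate B, 52 on plate C) remained. Their reads per cell ranged from 69933 to 1968860 in basal and from 105636 to 3226961 in luminal cells. Levels are given in CPM, counts scaled to the same total of reads in every cell. The sort labels were checked with markers that are not keratins. At least 4 of 10 basal markers had a read in 70 of 72 basal and 6 of 76 luminal cells, and at least 4 of 10 luminal markers had one in 71 of 76 luminal and 3 of 72 basal cells. Markers of other cell types (at least 4 of 20 of a list) were present in 20 basal and 10 luminal cells: endothelial in 6 and 4, fibroblast in 16 and 10, pericyte in 2 and 3 and immune in 0 and 0. The summed level of the fibroblast list ranged from 0.693 to 42281 CPM over basal and from 0 to 54622 CPM over luminal cells, with Tcf21 at 0 in luminal cells. That of the endothelial list, whose 20 genes all had reads in both populations, ranged from 0 to 18332 and from 0 to 9666 CPM. The pericyte list reached at most 8668 and 4375 CPM, with Ndufa4l2 at 0 in basal cells, and the immune list at most 707 and 934 CPM. The part of these other cells in the keratin values was not tested. Without the 30 cells the counts of 5 and 5 keratins given below were unchanged. With all log2 ratios of luminal over basal at least 2.96 in size and a limit of 1, those counts could hardly change. The largest moves of the ratios were from 4.25 to 4.84 for Krt19, -5.79 to -6.16 for Krt15, 4.63 to 4.95 for Krt18 and 3.77 to 3.46 for Krt7.

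Krt5 and Krt14, the classical pair of the basal layer, were high in basal cells. Shares of cells are given after each cell was thinned to 50000 reads, so that 1 read is worth 20 CPM. The Krt5 level in single basal cells had a lowest value of 0, a median of 153 and a highest value of 1236 CPM. In luminal cells the lowest and the median were 0 and the highest 21.2 CPM, so the ranges overlapped only at the low end. Krt5 was detected in 59 of 72 basal cells (81.9%, 71.1-90.0) and in 1 of 76 luminal cells (1.32%, 0.0333-7.11). The summed counts gave 234 CPM in basal cells (19655 reads, 230.4-236.9) and 0.342 CPM in luminal cells (39 reads, 0.243-0.467), of which 26 reads came from luminal cell 63. The log2 ratio of luminal over basal, taken with 1 CPM added, was -7.45, and -7.72 without that cell, where the luminal level was 0.115 CPM. Krt14 ran from 0 over a median of 1466 to 12475 CPM in basal cells, and from 0 over a median of 0 to 1142 CPM in luminal cells. The luminal range thus lay within the lower part of the basal range. Krt14 was detected in 67 of 72 basal cells (93.1%, 84.5-97.7) and in 15 of 76 luminal cells (19.7%, 11.5-30.5). The summed levels were 1944 and 47.5 CPM (46.2-48.7), with a log2 ratio of -5.33.

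Of the other 3 basal keratins, Krt17 was met in most basal cells and Krt15 and Krt23 in fewer. Krt17 spanned 0 to 7345 CPM in basal cells with a median of 846 CPM and was detected in 58 of 72 (80.6%, 69.5-88.9). In luminal cells it reached 2361 CPM, but 2894 of the 3510 luminal reads came from cell 63 alone. The summed levels were 1351 and 30.8 CPM (29.8-31.8), and the log2 ratio was -5.41 with that cell and -7.71 without it. Krt15, a keratin of basal cells in skin, spanned 0 to 3514 CPM with a median of 3.10 CPM and was detected in 34 of 72 basal cells (47.2%, 35.3-59.4). It was detected in 4 of 76 luminal cells (5.26%, 1.45-12.9). The summed levels were 370.0 and 5.70 CPM (5.27-6.15). The log2 ratio was -5.79, and -6.73 without luminal cell 35, which held 369 of 650 luminal reads. Krt23 spanned 0 to 649 CPM in basal cells with a median of 0 and was detected in 14 of 72 (19.4%, 11.1-30.5). It was detected in 0 of 76 luminal cells, a count that allows at most 3.95% by 3 counts of the total and 4.74% by the exact interval (with all reads 3 of 76 had one). Its summed levels of 59.3 and 0.140 CPM (16 luminal reads, 14 of them from cell 56, 0.0802-0.228) gave a log2 ratio of -5.73. Krt23 was therefore a keratin of a minority of the basal cells at this depth, and at full depth it had a read in 28 of them.

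**Figure D1:**
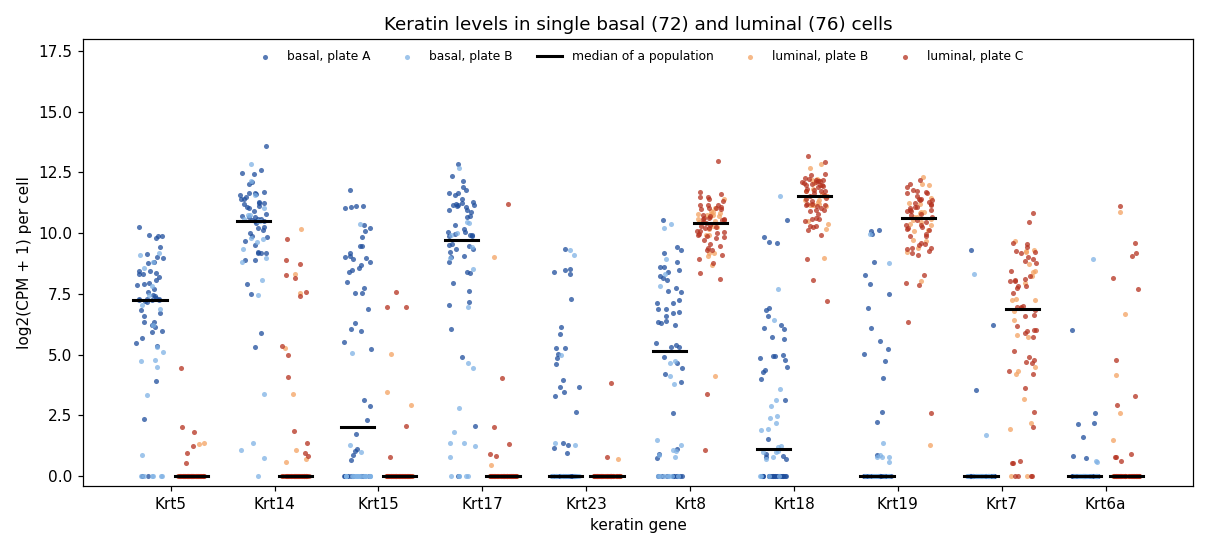
Level of each keratin in single cells as log2(CPM + 1), 1 point per cell, coloured by population and plate, with a line at the median of each population. The medians of Krt8, Krt18 and Krt19 lie high in luminal cells, those of Krt14, Krt17 and Krt5 in basal cells, and the basal cells spread widely for Krt15, Krt8 and Krt18.

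Krt8, Krt18 and Krt19, the simple-epithelial keratins, were detected in nearly all luminal cells. Krt18 had a lowest level of 148, a median of 2947 and a highest level of 9400.3 CPM in luminal cells and was detected in 76 of 76 (100%, 95.3-100). In basal cells it spanned 0 to 2974 CPM with a median of 1.18 CPM and was detected in 22 of 72 (30.6%, 20.2-42.5). The summed level was 122 CPM (119.9-124.7) for basal and 3055 CPM for luminal cells. The log2 ratio of Krt18 was 4.63, and 5.38 without basal cell 90, which held 4291 of the 10287 basal reads. Krt8, the type II partner, spanned 1.12 to 7969.8 CPM in luminal cells with a median of 1379 CPM and was detected in 75 of 76. Basal cells had a Krt8 median of 34.2 and a highest level of 1505 CPM, and 42 of 72 (58.3%, 46.1-69.8) had a read. Krt8 was thus the luminal keratin most often met in basal cells, and its summed levels of 168 CPM (165-170.4) for basal and 1444 CPM for luminal cells gave a log2 ratio of 3.10. Krt19, a type I keratin, spanned 1.44 to 5038 CPM in luminal cells with a median of 1571 CPM and was detected in 74 of 76. In basal cells it spanned 0 to 1134 CPM, was detected in 17 of 72 (23.6%, 14.4-35.1) and gave a log2 ratio of 4.25 from summed levels of 92.1 CPM (90.1-94.2) and 1766 CPM. The ranges overlapped for Krt8, Krt18 and Krt19. The highest basal level lay above the luminal median for Krt8 and, in basal cell 90, for Krt18. For Krt19 it lay above the luminal lower quartile of 838 CPM.

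Krt7 and Krt6a, both type II, differed from these in being unevenly expressed among luminal cells. Krt7 spanned 0 to 1803 CPM with a median of 117 CPM and was detected in 55 of 76 luminal cells (72.4%, 60.9-82.0) and 4 of 72 basal cells (5.56%, 1.53-13.6). Its summed levels were 16.5 CPM (15.7-17.4) for basal and 238 CPM for luminal cells. Its log2 ratio was 3.77, and 4.98 without basal cell 26, which held 846 of 1391 basal reads. Krt6a was detected in 11 of 76 luminal cells (14.5%, 7.45-24.4) and 3 of 72 basal cells (4.17%, 0.868-11.7). Its median was 0 in both populations, with highest levels of 2249 CPM in luminal and 492 CPM in basal cells. The 3 luminal cells with most Krt6a held 73.3% of its luminal reads, and basal cell 81 held 776 of its 882 basal reads. The summed level was 10.5 CPM (9.80-11.2) for basal cells and 88.5 CPM for luminal cells, the latter being 56.7 CPM without luminal cell 2. The log2 ratio of 2.96 was 5.29 without basal cell 81, so the size of the Krt6a difference rested on single cells.

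At a fold of 2, 5 of the 10 keratins were higher in basal cells (Krt5, Krt14, Krt15, Krt17 and Krt23), where 18.3% of the 14773 genes tested passed the same fold. The other 5 were higher in luminal cells (Krt6a, Krt7, Krt8, Krt18 and Krt19), against 28.4% of all genes. The median log2 ratio over all genes was 0.18. On plate B alone the same 5 and 5 passed, where 17.2% and 41.4% of all genes did. There the log2 ratios were -6.98 for Krt5, -4.82 for Krt14, 4.26 for Krt18 and 2.94 for Krt8. The 10 genes had been picked as keratins of these layers with earlier results known, so the counts describe them only. The neighbours Krt15 and Krt19 differed in opposite directions, and so did Krt6a and Krt5.

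Some basal keratins differed between the plates of basal cells, as many other genes did. Of the 10 keratins, 3 were higher on plate A than on plate B by at least 2-fold, where 41.7% of all genes were. The count thus does not set the keratins apart from other genes. These were Krt5, Krt15 and Krt17, with log2 ratios of B over A of -1.01, -2.46 and -1.40. Krt6a was higher on B (3.33, where 13.6% of all genes were), again through basal cell 81. Krt15 was detected in 32 of 50 plate A cells and in 2 of 22 plate B cells, and Krt17 in 48 of 50 and 10 of 22. Krt14 and Krt23 differed by less, with log2 ratios of -0.43 and 0.07, and Krt14 was detected in 49 of 50 and 18 of 22 cells. The median number of genes per cell at 50000 reads was 2896.5 for plate A against 1574.5 for plate B, and its part in these differences was not tested. Between the plates of luminal cells Krt15 (1.84) and Krt17 (1.20) were higher on C than on B (24.6% of all genes were), both from a few cells, and 0 of the 10 were higher on B (15.4% of all genes were). Krt7, Krt8, Krt18 and Krt19 lay within 0.19 on the log2 scale between luminal plates.

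**Figure D2:**
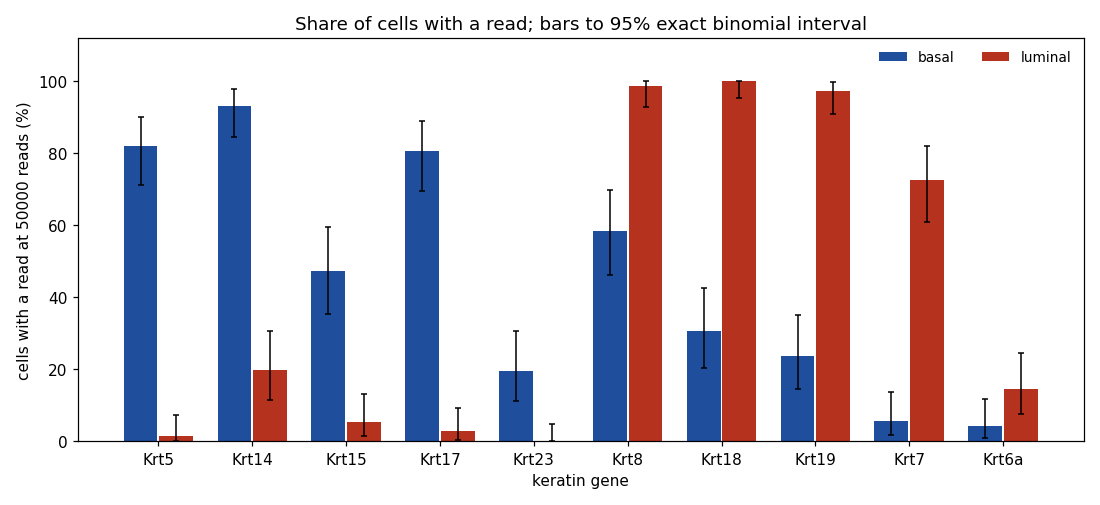
Percent of the 72 basal and 76 luminal cells with at least 1 read of each keratin at 50000 reads per cell; error bars are exact 95% binomial intervals. Krt8, Krt18 and Krt19 reach 97.4% to 100% of luminal cells, and Krt8 is the luminal keratin with the highest share in basal cells at 58.3%.

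Pairing was examined in each cell by asking whether a type I and a type II keratin were detected together. Krt5 and Krt14 were found together in 57 of 72 basal cells (79.2%, 68.0-87.8), where the product of the single shares was 76.3%. Of the other basal cells, 10 had Krt14 without Krt5, 2 had Krt5 without Krt14 and 3 had neither. On plate A 45 of 50 cells had both and on plate B 12 of 22. In luminal cells the pair was not detected at this depth (0 of 76, at most 3.95% by 3 counts of the total and 4.74% by the exact interval). At this depth the 15 cells with Krt14 and the 1 cell with Krt5 were different cells. With all reads of each cell, 8 luminal cells had Krt5, 22 had Krt14 and 4 had both (5.26%). Krt5 and Krt15 were together in 31 basal cells (43.1%, with a product of 38.7%), and 3 cells had Krt15 without Krt5. Krt6a and Krt17 were together in the 3 basal cells with Krt6a (4.17%, with a product of 3.36%). In luminal cells they were together in 0 of 76, where 11 cells had Krt6a and 2 had Krt17 and the product was 0.381%, so a joint share could hardly be seen.

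Krt8 and Krt18 were detected together in 75 of 76 luminal cells (98.7%, with a product of 98.7%), and the remaining cell had Krt18. With each gene in nearly all luminal cells, this joint detection tells nothing about pairing. Most basal cells with Krt8 lacked its partner at this depth. Of 42 basal cells with Krt8, 15 had Krt18 (20.8% of all 72, 12.2-32.0, with a product of 17.8%) and 27 did not, while 7 had Krt18 without Krt8. With all reads of each cell, 31 basal cells had both, against 55 with Krt8 and 45 with Krt18, which is 43.1% where the product of the shares was 47.7%. On plate B Krt18 was detected at full depth in 18 of 22 basal cells, with a median of 3.17 CPM in the cells with reads, below the 20 CPM that 1 read of 50000 is worth, and in 27 of 50 on plate A with a median of 29.8 CPM. Every one of the 55 luminal cells with Krt7 (72.4%) also had Krt18 and Krt19. These were detected in 76 and 74 of the 76 luminal cells, and the products were 72.4% and 70.5%. Krt8 and Krt19 were together in 73 of 76 luminal (96.1%, with a product of 96.1%) and 10 of 72 basal cells (13.9%, with a product of 13.8%). Krt8 and Krt23 were together in 10 basal cells (13.9%, with a product of 11.3%), and 4 further basal cells had Krt23 without Krt8.

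**Figure D3:**
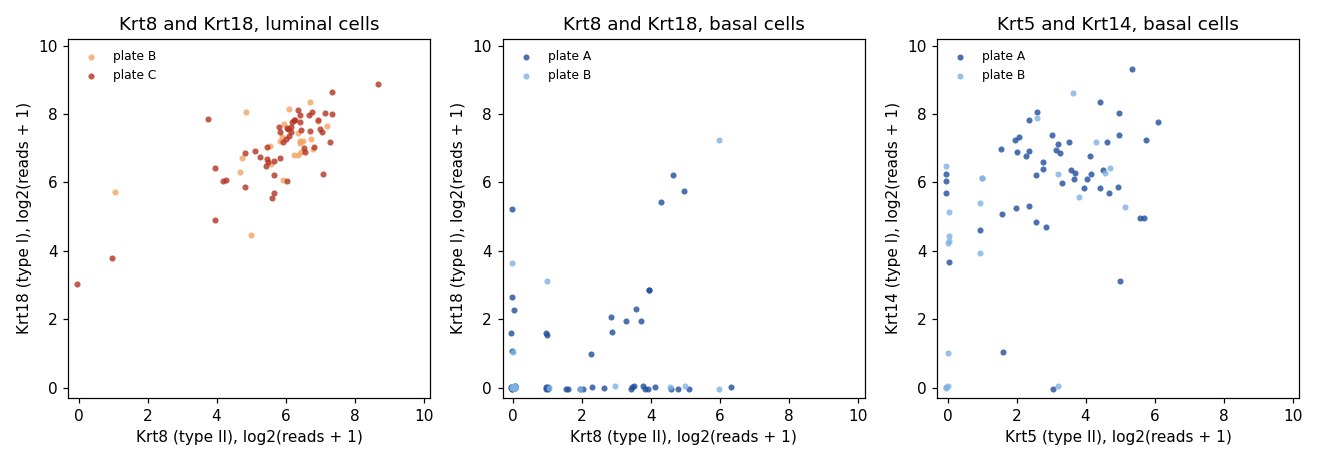
Reads of a type I against its type II keratin in single cells at 50000 reads, as log2(reads + 1) with a small jitter that separates overlapping points. Luminal cells lie together at high Krt8 and Krt18, many basal cells lie along the Krt8 axis with no Krt18 (27 of 42 with Krt8), and most basal cells have both Krt5 and Krt14 (57 of 72).

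Levels of different keratins were compared per length, as CPM divided by the gene length in kilobases (RPKM). The order in basal cells was Krt14 (1171 RPKM), Krt17 (894), Krt15 (215), Krt5 (107), Krt8 (92.9), Krt18 (87.3), Krt19 (67.0), Krt23 (38.6), Krt7 (10.4) and Krt6a (4.64 RPKM). The ranges of Krt5, Krt8 and Krt18 over basal cells overlapped, and the place of Krt18 rested on few cells: its level of 122 CPM was 72.5 CPM without basal cell 90, and 3105 of its 10287 reads remained without cells 13, 20 and 90. In luminal cells the order was Krt18 (2182 RPKM), Krt19 (1285), Krt8 (799.8), Krt7 (150.2), Krt6a (39.2), Krt14 (28.6), Krt17 (20.4), Krt15 (3.31), Krt5 (0.156) and Krt23 (0.0911 RPKM). Krt14 and Krt17 made up 43.6% and 33.3% of the summed RPKM of the 10 keratins in basal cells, and Krt18, Krt19 and Krt8 made up 48.4%, 28.5% and 17.7% in luminal cells.

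**Figure D4:**
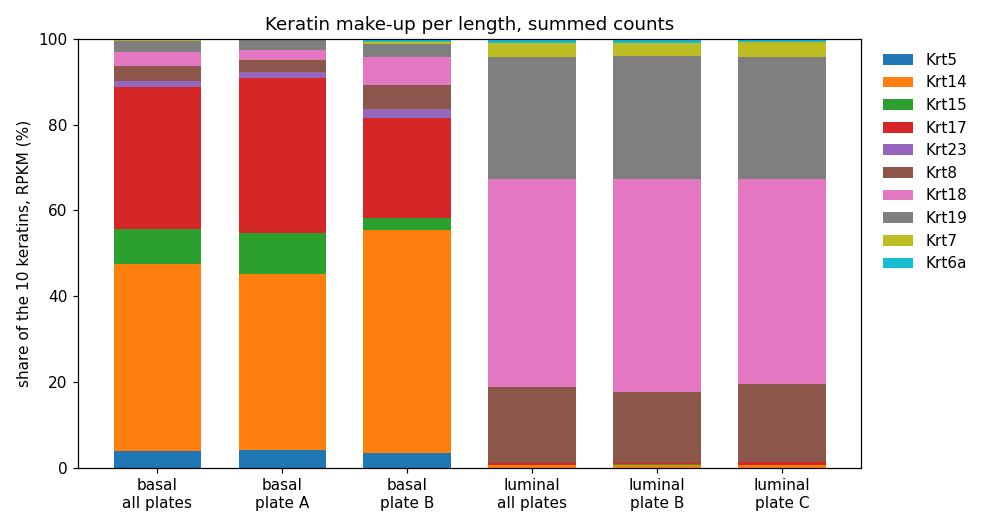
Share of each keratin in the summed RPKM of the 10 genes, in percent, for each population and plate (stacked bars, summed counts). Krt14 and Krt17 fill most of the basal bars and Krt18, Krt19 and Krt8 most of the luminal bars, and the luminal plates B and C are alike (Krt18 49.6% and 47.8%).

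Summed, the 6 type I members took more reads per length than the 4 type II members in both populations. The median type I share of keratin reads per length was 94.2% in basal cells (range 41.8 to 100%, 67 cells with at least 20 keratin reads) and 77.0% in luminal cells (range 55.8 to 99.1%, 75 cells). It was over 50% in 66 of 67 basal and in 75 of 75 luminal cells. In the thinned counts 6 of these basal cells had type I reads alone, which does not show that they lacked a type II keratin. With all reads, basal cells 27 and 63 had Krt5 at 4.16 and 26.4 CPM. Basal cells 64, 84 and 86 had Krt8 at 25.5, 0.856 and 0.713 CPM, and basal cell 72 had no type II read of the members. The summed ratio of type I to type II per length was 11.5 in basal and 3.56 in luminal cells. The medians differed little between plates, with 94.0% on A and 95.6% on B in basal and 77.2% on B and 76.7% on C in luminal cells. Within pairs, Krt14 exceeded Krt5 per length in 58 of 64 basal cells with both (median log2 ratio 3.60), Krt18 exceeded Krt8 in 75 of 76 luminal cells (1.54), and Krt19 exceeded Krt7 in 68 of 70 (3.72). In basal cells Krt18 was the higher in 12 of 31 cells with both (-1.19), but the plates differed, with 6 of 20 plate A cells (-1.23) and 6 of 11 plate B cells (0.37). The ratio of summed Krt18 to Krt8 per length was 2.73 in luminal and 0.940 in basal cells (1.19 on plate B), and 0.376 in basal cells without cells 13, 20 and 90.

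Variation among the cells of a population was described by Spearman correlations of thinned counts. Such cells share a sort, PCR plates and read depth, and the values are descriptions without a test. In 76 luminal cells Krt8 and Krt18 had a correlation of 0.63 (0.51 on plate B, 0.69 on plate C), the highest of Krt8 with any of 5699 genes, where the median over genes was 0.03 and the 95th percentile 0.22. Krt19 came next for Krt8 (0.45, with 0.43 and 0.44 on the plates) and for Krt18 (0.46, with 0.58 and 0.37), so that the 3 simple-epithelial keratins were each other's nearest genes. Krt7 was less tied to them: 0.33 with Krt18 (rank 111, 0.42 and 0.29 on the plates), 0.20 with Krt8 (0.29 and 0.15) and 0.19 with Krt19 (rank 1003, 0.33 and 0.08). The Krt7 level had a correlation of 0.33 with the number of 10 mature luminal markers detected in a cell (0.21 on plate B, 0.39 on plate C) and of -0.15 with that of 10 luminal progenitor markers (-0.17 and -0.14). Krt8, Krt18, Krt19, Krt14 and Krt6a had correlations from -0.18 to 0.17 with these 2 counts, and from -0.33 to 0.27 within plates.

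In 72 basal cells Krt5 had a correlation of 0.38 with Krt14 (rank 9 of 4355 genes), 0.36 with Krt17 (rank 24) and 0.28 with Krt15 (rank 103). These are ranks among the genes of Krt5, whose 95th percentile was 0.24. Krt5 was at rank 14 among the genes of Krt14, 173 among those of Krt17 and 766 among those of Krt15. The 95th percentiles for Krt14, Krt17 and Krt15 were 0.23, 0.35 and 0.37, so 0.28 lay below that of Krt15. The correlation of Krt5 with Krt14 was 0.20 within plate A and 0.57 within plate B. For Krt5 with Krt17 the plate values were 0.36 and 0.08. Krt15 had 0.23 with Krt5 on plate A, and with Krt15 detected in 2 plate B cells no value could be read there. The same holds for the next values of Krt15, Krt23 and Krt18, detected in 2, 3 and 4 plate B cells. Krt15 had 0.49 with Krt17 (0.42 on plate A) and Krt17 had 0.37 with Krt23 (0.35 on plate A). Krt15 was at rank 15 among the genes of Krt17, and Krt17 at rank 32 among those of Krt15. The medians over genes were 0.15 for Krt15 and 0.13 for Krt17, and 0.37 lay little above the 95th percentile of 0.35 for Krt17. Krt8 and Krt18 had 0.19 in basal cells (rank 502, 0.18 on plate A) and 0.06 without cells 13, 20 and 90, against 0.63 in luminal cells. The genes apart from keratins with the highest correlation with Krt14 were Acta2 (0.49), Tagln (0.48) and Arc (0.46), of which Acta2 and Tagln encode smooth muscle proteins of the contractile basal cell. Those for Krt5 were Txn1 (0.44), Prdx1 (0.43) and Atp5j (0.42), and those for Krt17 Serpinb5 (0.55), S100a6 (0.54) and Eef1a1 (0.54). In luminal cells they were Gm15772 (0.42), Oaz1-ps (0.42) and Akap9 (0.40) for Krt18, Dsp (0.37), which encodes the desmosomal anchor of keratin filaments, Atp5b (0.36) and Rufy1 (0.36) for Krt19, and Ndufb9 (0.46), Tagln2 (0.46) and Gpc1 (0.46) for Krt7. Within single plates these 18 correlations ranged from 0.18 to 0.62.

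**Figure D5:**
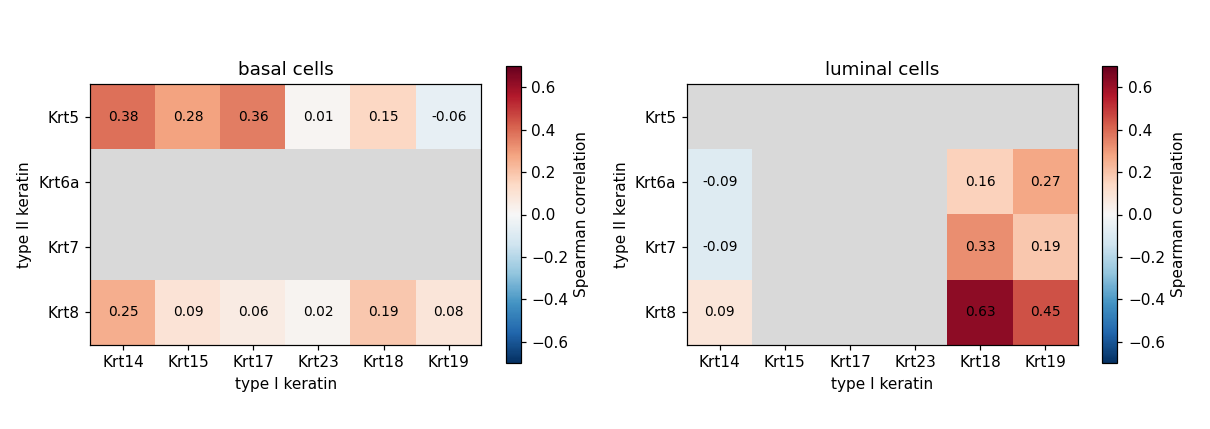
Spearman correlation of each type II keratin (vertical axis) with each type I keratin (horizontal axis) over the cells of a population at 50000 reads; grey marks pairs in which a gene was detected in fewer than 10 cells. Krt8 with Krt18 (0.63) and with Krt19 (0.45) stand out in luminal cells and Krt5 with Krt14 (0.38) and with Krt17 (0.36) in basal cells.

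Most basal cells had a read of a luminal keratin, while a smaller number of luminal cells had one of Krt5 or Krt14. At 50000 reads 54 of 72 basal cells (75%, 63.4-84.5) had a read of Krt8, Krt18 or Krt19, 43 of 50 from plate A and 11 of 22 from plate B. The commonest state was Krt8 alone, in 24 cells, followed by Krt8 with Krt18 in 8 and all 3 in 7 cells, and 18 cells had none. All of Krt5, Krt14, Krt8, Krt18 and Krt19 were detected in 6 basal cells, each on plate A, and in 0 of 76 luminal cells. In luminal cells 16 of 76 (21.1%, 12.5-31.9) had Krt5 or Krt14, 15 of them Krt14 alone. The amounts, taken from all reads of each cell, were small in most cells of each population. The luminal set (Krt7, Krt8, Krt18 and Krt19) took a median of 3.23% of the reads of both sets in the 71 basal cells with at least 20 such reads. The other one, basal cell 82, had 13 reads, 46.2% of them of the luminal set. The basal set (Krt5, Krt14, Krt15 and Krt17) took a median of 0% over all 76 luminal cells. With all reads, 26 of these cells had a read of Krt5 or Krt14, so the 0% does not describe those 26.

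In a few cells the keratins of the other population prevailed. The luminal set exceeded 10% in 16 of 71 basal cells and 50% in 5, and the basal set exceeded 10% in 2 of 76 luminal cells. Basal cell 90 had 99.96% luminal keratin reads, with Krt18 at 2974 CPM and Krt14 at 0.693 CPM, and held 0 of 10 basal and 6 of 10 luminal markers. Basal cells 13 and 20 had 70.0% and 75.2% luminal keratin reads, with Krt14 at 470.5 and 581 CPM and Krt18 at 1505 and 914 CPM. They held 8 and 9 basal and 8 and 5 luminal markers, and both also carried markers of other cell types. Basal cell 72 had no read of Krt5, Krt14, Krt15 or Krt17 but Krt19 at 432 CPM, with 5 basal and 0 luminal markers and markers of another cell type. Basal cell 70 had 51.4% luminal keratin reads through Krt8 at 1179.8 CPM, with 6 basal markers and 1 luminal marker. Luminal cell 63 had Krt17 at 2361, Krt14 at 419 and Krt18 at 1524 CPM, with 9 basal and 7 luminal markers. The study reports that capture sites were viewed by microscope for single cells before sequencing. Whether the sites of these cells held more than 1 cell was not tested here. Without basal cells 13, 20 and 90 and luminal cell 63 the log2 ratios were 6.27 for Krt18, 5.25 for Krt19, 4.27 for Krt7, 3.45 for Krt8 and -7.76 for Krt17.

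The 10 keratins held 97.8% of all keratin reads in basal and 98.7% in luminal cells, and 0.437% and 0.668% of all reads. Of the 44 other keratin genes, 6 reached 10 CPM in a population. Krt4, a type II keratin, had 30.2 CPM in luminal and 0.0238 CPM in basal cells (log2 ratio 4.93) and was detected in 9 luminal cells. Krt42 (38.1 CPM in basal cells) and Krt16 (14.4 CPM) are type I relatives of Krt14 and Krt17. With all reads, all 35 basal cells with Krt42 and all 32 with Krt16 also had Krt14. At that depth 71 of the 72 basal cells had Krt14, so this overlap was nearly fixed. The Krt14 level in basal cells was 1944 CPM. Krt6b, a close relative of Krt6a, was present in 12 luminal cells, 11 of them with Krt6a, and 99.0% of its basal reads came from 1 cell. How reads shared by such relatives were counted is not given in the sources used here, so these 3 are uncertain. Krt71 and Krt81 had 98.3% and 99.95% of their reads in the higher population from 1 cell each.

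Among 30 partner genes of keratin filaments (desmosome, hemidesmosome, plakin and lamin genes and other binding proteins), 25 reached 10 CPM in a population. Of these, 10 were higher in basal and 3 in luminal cells by at least 2-fold (18.3% and 28.4% of all genes were). The median log2 ratio was -0.23 against 0.18 over all genes. Of the 10 and the 3, 4 and 2 also passed on plate B. All genes passing on plate B, whatever their overall ratio, made up 17.2% and 41.4%, which is a different count. Nes (1.62, but -1.80 overall), Itgb4 (1.39) and Lmnb1 (2.88) passed towards luminal cells on plate B only. The largest ratios towards basal cells were those of Pkp1 (-4.13) and Dsc3 (-4.08), desmosome genes whose ratios on plate B were -0.79 and -0.16. Those towards luminal cells were of Pkp2 (5.63) and Ppl (1.23, and 5.67 on plate B). Pkp2, which encodes the plakophilin of simple epithelia, was detected in 21 luminal and 0 of 72 basal cells (at most 4.17% by 3 counts of the total). Its ratio on plate B was 6.37.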

How the data were processed

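Per the labels and the study's methods, the authors aligned read pairs to mm10 with Subread and assigned them to genes with featureCounts and the built-in RefSeq annotation of Rsubread, and deposited a file of raw counts and gene lengths for each cell. How strand and multi-mapping reads were treated is not given in the sources used here. Of 27179 identifiers, 25275 matched a symbol (GRCm38.p6). Removed were the 1904 without one (1.94% of counts), 15 mitochondrial genes and 124 genes of ribosomal proteins.

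The 186 cells had 3105 to 3784407 counts. Basal cells with at least 50000 reads and 1000 genes and luminal cells with at least 100000 reads and 1500 genes were kept, and genes with at least 1 CPM in at least 3 cells were tested (14773, all 10 keratins among them). Counts were summed per population, and log2 ratios were taken after 1 CPM was added. Sums have exact Poisson and shares exact Clopper-Pearson intervals at 95%. Libraries carry no molecular identifiers, so intervals cover counting error only. Cells were thinned to 50000 reads without replacement for shares, correlations and type I shares. Because cells are not replicates, no test was run. No doublet caller was run, since the study inspected capture sites by microscope. No pair of cells looked like 1 library (chi-square per gene of at least 47.4). The members and lists were chosen with earlier results of these data known. Genes named beside the members are other keratins with at least 10 CPM, the 2 partner genes of largest ratio in each direction with at least 10 CPM, and the 3 genes, no keratin among them, of highest correlation with a read in at least 20% of cells. Promoters are those of RefSeq on GRCm38.p6: entries matched for 6 of the 10 members, Krt15, Krt17, Krt6a and Krt19 had none, and the Krt14 window does not hold the annotated start of the gene and is not shown.

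Alternatives covered plates, scaling (TMM factors of edgeR 4.0.16 in R 4.3.3, median-of-ratios factors), the added CPM, cell and gene filters, depth, detection threshold, thinning draw, single cells and cells with markers of other types. The ratio step was tested on simulated data. Python 3.11.15, numpy 2.4.6, pandas 2.3.3, SciPy 1.17.1 and matplotlib 3.10.9 were used. The series-wide table was not used here.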

Additional observations from a re-analysis of the deposited data

Results flagged for a closer look

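Keratin reads were also present in the 38 wells below the thresholds on reads and genes (24 basal, 14 luminal), which enter no comparison above, at levels over those that 3 counts allow. In the basal wells Krt14 had 899 CPM (239 reads, 788.6-1020.4), with reads in 23 of 24 wells, where 3 counts are worth 11.3 CPM. In the luminal wells Krt18 had 1820.4 CPM (751 reads, 1693-1955), with reads in 14 of 14 wells and 46.5% of them from 1 well, where 3 counts are worth 7.27 CPM. The other simple-epithelial keratins were not present in proportion to Krt18. Krt8 and Krt19 had 26.7 and 55.8 CPM in these luminal wells, and the basal wells had Krt18 at 440.1 CPM beside Krt8 at 41.4 CPM. The cause of these levels was not tested.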

How the results depend on the processing

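The keratins higher by at least 2-fold were 5 in basal and 5 in luminal cells under all 14 alternatives tried for the ratios, and no value changed sign where it had been called. Leaving out basal cells 13, 20 and 90 and luminal cell 63 was chosen after seeing the data. Scaling moved the median over all genes by -0.15 (TMM) and -0.17 (median of ratios). Of 140 ratios under alternatives, 76 left their counting interval, all with the same direction. The share of basal cells with both Krt5 and Krt14 (79.2%) was 88.9% with all reads, 56.9% with at least 5 reads and 54.5% on plate B. That of basal cells with Krt8, Krt18 or Krt19 (75%) was 95.8% with all reads, 48.6% with at least 5 reads and 50% on plate B. The share of luminal cells with Krt8 and Krt18 (98.7%) was 100% with all reads, on plate B and without cells holding markers of other types, and that with Krt5 or Krt14 (21.1%) was 34.2% with all reads and 13.2% with at least 5 reads. The correlation of Krt5 with Krt14 in basal cells (0.38) was 0.20 within plate A and 0.57 within plate B, and that of Krt8 with Krt18 in luminal cells (0.63) was 0.76 as Pearson's r of log2 values and 0.51 on plate B. The cause was not tested. Of the other values, 46 of 238 shares and 27 of 114 correlations moved. No paired analysis was possible because numbers that occur in both basal and luminal labels only count cells and the results come from no test. Depth limits detection: 1 read of 50000 is worth 20 CPM, so a keratin below that level was missed in many cells.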
